A study of Mus musculus with 6 samples.

Results

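Cells hold on to the matrix around them through integrins, and 38 genes of that machinery, of 54838 genes counted, are described here in mouse intestinal stem cells: 7 integrin alpha chains, 6 integrin beta chains, 6 Src-type kinases and Csk, 5 focal adhesion kinases and scaffolds, 7 integrin activators and members of the ILK complex, and 6 proteins that tie adhesions to actin. The members are a list of gene names drawn up for this pathway with earlier results of these data known. They were matched to the Ensembl identifiers of the count files by symbol, and all 38 matched a single identifier. The question was which chains and kinases the cells express in Matrigel and which of them differ between INT-777 and DMSO, with libraries paired by day.

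The INT-777 group held 3 libraries of cells given INT-777 at 30 µM, an agonist of the bile acid receptor TGR5, and the DMSO group held 3 libraries of cells given the solvent. All cells, in both groups, came from mice of the strain B6.129P2-Lgr5tm1(cre/ERT2)Cle/J, in which Lgr5 carries an eGFP-IRES-CreERT2 reporter; no age is given for the mice. On each of 3 days, intestines of 4 mice were pooled and the cells with high reporter signal were sorted, so that replicate numbers are days and a library stands for a pool and not for a mouse. About 200000 cells were embedded in Matrigel, in drops of 10 µL with 20000 cells each, and treated 4 h later, and the medium of both groups also held JAG-1 (1 µM), a peptide that activates Notch, and CHIR99021 (3 µM), which inhibits GSK3. The treatment lasted 12 h according to the sample labels and 16 h according to the design text.

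Integrins are pairs of an alpha and a beta chain that span the membrane and bind laminin, collagen, fibronectin or related ligands outside the cell. Talins and kindlins bind the tail of the beta chain and switch the pair on, the ILK complex and vinculin add further links, and actinins, filamin, zyxin and VASP connect the site to actin filaments. Focal adhesion kinase and the Src kinases gather there and phosphorylate scaffolds such as paxillin, and the kinase Csk holds Src kinases in check. In intestinal crypts, integrins anchor epithelial cells to a basement membrane rich in laminin, and Matrigel is a laminin-rich extract of basement membrane.

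The libraries held 45682340 to 47905087 read pairs assigned to genes and levels are given as CPM, which are counts scaled to the library's total and its TMM factor from edgeR. The first principal component (52.1% of the variance) set both day 3 libraries apart from the rest, and they had the lowest RNA integrity number of their group, 9 with INT-777 and 8.7 with DMSO. Summed goblet markers (9 genes) were 3002, 2902 and 12450 CPM with INT-777 and 5663, 5566 and 28240 CPM with DMSO on days 1, 2 and 3, highest on day 3 in each group and lower with INT-777 on every day. Summed enteroendocrine markers (7 genes) were 529.5 to 2010 CPM with INT-777 and 565 to 2540 CPM with DMSO, again highest on day 3. Summed Paneth markers (8 genes) were 3788, 4029 and 2377 CPM with INT-777 and 4404, 4161 and 3535 CPM with DMSO on days 1, 2 and 3, above the sum of the 6 stem cell markers in every library and lower with INT-777 on every day. The label of the cells held for the epithelial markers, 6 genes that summed to 9616 to 10030 CPM with INT-777 and 8603 to 8989 CPM with DMSO, and for the 6 stem cell markers, with Lgr5 at 53.7 to 67.2 CPM with INT-777 and 62.2 to 74.5 CPM with DMSO. All 12 fibroblast and muscle markers were below 1 CPM in every library, with a sum of 1.66 to 2.23 CPM with INT-777 and 2.02 to 3.02 CPM with DMSO. Of 21 immune markers 17 stayed below 1 CPM in every library, and the sum of all 21 was 4.35 to 12.6 CPM with INT-777 and 4.23 to 12.9 CPM with DMSO, highest on day 3 in both groups.

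Laminin-binding chains led the alpha chains. To compare genes, CPM was divided by the length of all annotated exons in kb, and the order below is that of CPM per kb in DMSO. Itga6, a laminin-binding chain that pairs with Itgb1 or Itgb4, had 47.6 ± 2.97 CPM per kb with INT-777 and 41.6 ± 3.13 with DMSO (mean ± SD, n = 3 each, here and for all values per kb). Itga3, the other main laminin-binding chain, followed at 37.1 ± 1.72 CPM per kb with INT-777 and 39.2 ± 0.341 with DMSO, and the DMSO libraries of the pair overlapped. Both stood above the collagen-binding chain Itga2, with 10.6 ± 1.43 CPM per kb with INT-777 and 11.7 ± 0.550 with DMSO. Itgav, the chain that pairs with several beta chains to bind vitronectin and latent TGF-beta, had 5.71 ± 0.0222 CPM per kb with INT-777 and 6.11 ± 0.159 with DMSO. The fibronectin-binding chain Itga5 was lower, at 2.54 ± 0.279 CPM per kb with INT-777 and 2.41 ± 0.0875 with DMSO. The collagen-binding chain Itga1 had 1.70 ± 0.0215 CPM per kb with INT-777 and 2.30 ± 0.104 with DMSO, and its DMSO libraries overlapped those of Itga5. With the longest transcript as the length, Itga1 stood above Itga5, at 3.91 against 2.69 CPM per kb with DMSO. Itga9 was lowest of the 7, at 0.326 ± 0.0265 CPM per kb with INT-777 and 0.315 ± 0.0671 with DMSO. Of the summed level of the 7 chains, Itga6 made up 45.1% with INT-777 and 40.2% with DMSO. Per kb of the longest transcript, Itga6 had 99.7 CPM with INT-777 and 87.2 with DMSO, and Itga3 had 43.5 and 46.0. The share of Itga6 and its distance from Itga3 therefore depend on the length used.

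Itgb1, the common partner of most of these alpha chains, was the leading beta chain, with 82.6 ± 0.596 CPM per kb with INT-777 and 81.8 ± 0.240 with DMSO. Itgb4, which pairs with Itga6 alone and links it to keratin filaments in hemidesmosomes, came next at 37.8 ± 2.00 CPM per kb with INT-777 and 33.5 ± 0.724 with DMSO. These chains made up 60.8% and 27.8% of the summed beta chain level with INT-777, against 62.0% and 25.4% with DMSO. Itgb5, a partner of Itgav, had 8.64 ± 0.145 CPM per kb with INT-777 and 8.91 ± 0.289 with DMSO. Itgb6, another partner of Itgav, had 6.71 ± 0.580 CPM per kb with INT-777 and 7.65 ± 1.22 with DMSO. The order of Itgb5 and Itgb6 turns when the longest transcript is used as the length, so it cannot be given. Itgb8 was low at 0.294 to 0.604 CPM (per gene, not per length). Itgb3, which can also pair with Itgav, had 0, 0 and 3 read pairs with INT-777 and 0, 0 and 2 with DMSO on days 1, 2 and 3. A count of 0 allows up to 0.0630 to 0.0651 CPM per library, taken as 3 read pairs and covering counting error only. Itgb3 did not reach the minimum count for the test, and the other 37 members did.

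**Figure D1:**
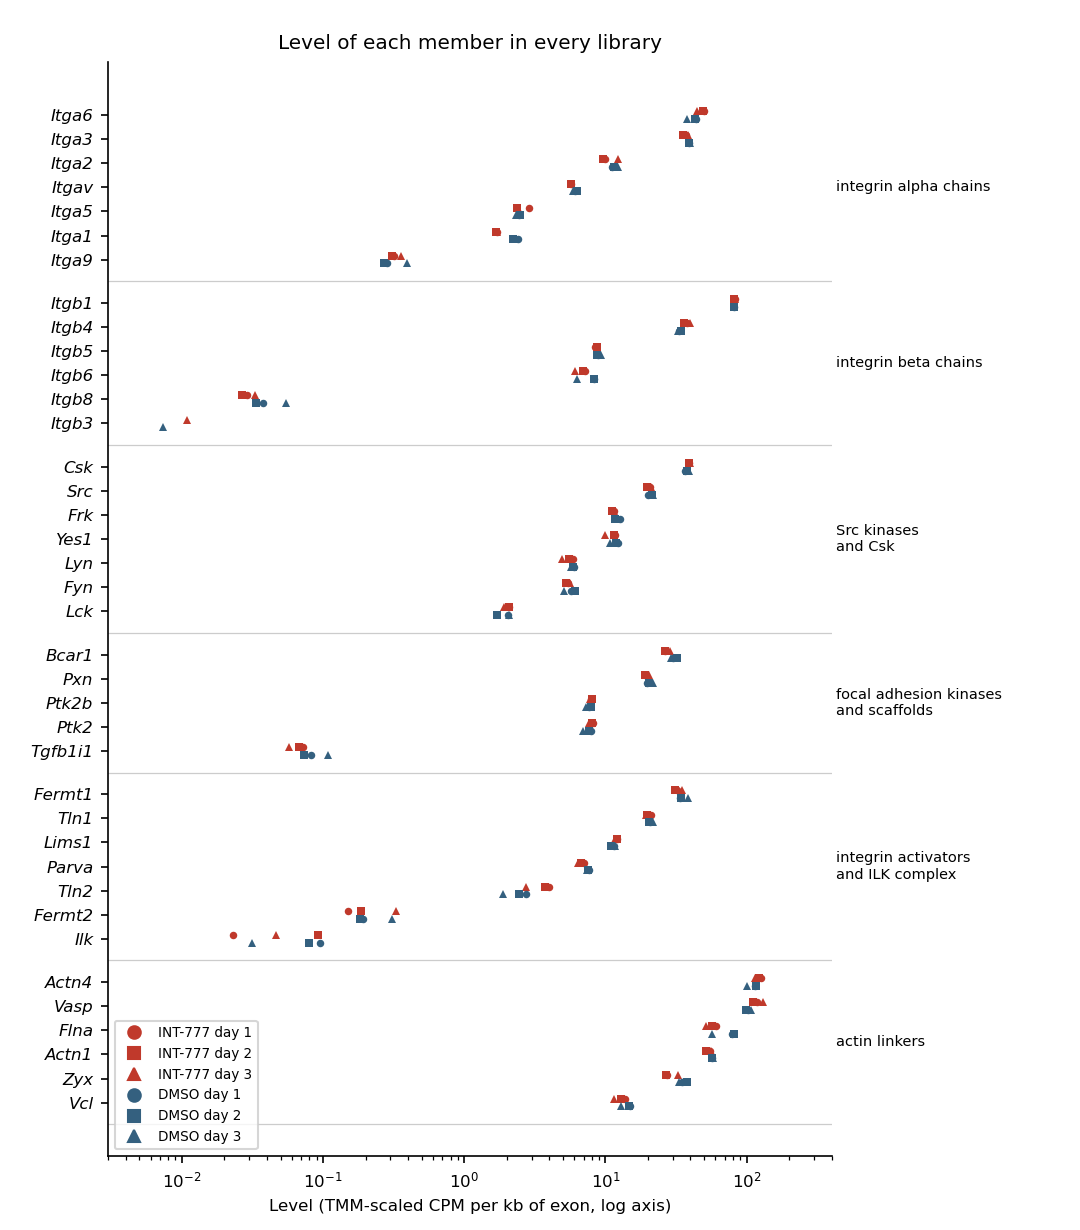
Level of each of the 38 members in every library, in TMM-scaled CPM per kb of exon on a log axis, grouped by role and ordered by the DMSO mean, with red for INT-777 and blue for DMSO and the marker shape for the day. Itgb1, Itga6, Itga3 and Itgb4 sit highest among the integrin chains, and a library with 0 read pairs, as for Itgb3 on days 1 and 2, has no point.

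Csk, the kinase that switches Src kinases off by phosphorylating their tail, was higher per length than any Src kinase of the list, with 39.2 ± 0.327 CPM per kb with INT-777 and 37.7 ± 1.29 with DMSO. Src had 20.5 ± 0.692 CPM per kb with INT-777 and 21.1 ± 0.956 with DMSO and was the highest of the Src kinases. Frk, a Src-related kinase of epithelia, had 11.4 ± 0.229 CPM per kb with INT-777 and 12.1 ± 0.595 with DMSO. Yes1, a close relative of Src, had 11.0 ± 0.999 CPM per kb with INT-777 and 11.6 ± 0.818 with DMSO, and its DMSO libraries overlapped those of Frk. With the longest transcript as the length, Yes1 stood above Frk, at 19.0 against 13.5 CPM per kb with DMSO. Lyn, a kinase best known from B and myeloid cells, had 5.43 ± 0.462 CPM per kb with INT-777 and 5.85 ± 0.0952 with DMSO. Fyn, a widely expressed kinase, had 5.41 ± 0.181 CPM per kb with INT-777 and 5.63 ± 0.481 with DMSO and overlapped Lyn in DMSO. The order of Lyn and Fyn also turns with the longest transcript as the length. Lck, best known from T cells, was the lowest of the 7 at 2.02 ± 0.0818 CPM per kb with INT-777 and 1.94 ± 0.202 with DMSO. Its level was 4.99 to 6.07 CPM over all libraries. Of the T cell markers on the immune list, Cd3e had 0 to 0.321 CPM with INT-777 and 0 to 0.151 CPM with DMSO, Cd3g had 0 to 0.342 CPM with INT-777 and 0 to 0.517 CPM with DMSO and Cd8a had 0 to 0.813 CPM with INT-777 and 0 to 0.711 CPM with DMSO, each highest on day 3 in both groups. Their part in the level of Lck was not tested.

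Among the other cytoplasmic members, the highest levels were those of 4 of the 6 actin linkers, Actn4, Vasp, Flna and Actn1. The order of Flna and Actn1 turns with the longest transcript as the length. Actn4, a nonmuscle actinin that crosslinks actin, had 121 ± 5.64 CPM per kb with INT-777 and 111 ± 8.28 with DMSO. Vasp, which promotes filament growth, had 120.0 ± 9.96 CPM per kb with INT-777 and 103 ± 4.03 with DMSO. Fermt1, the kindlin of epithelia, had 32.8 ± 1.95 CPM per kb with INT-777 and 35.5 ± 2.58 with DMSO, while Fermt2, the kindlin of most other tissues, was at 0.784 to 1.71 CPM. Tln1 similarly exceeded Tln2 per length, with 20.0 ± 0.910 CPM per kb with INT-777 and 20.9 ± 0.815 with DMSO for Tln1. Tln2 had 3.48 ± 0.653 CPM per kb with INT-777 and 2.37 ± 0.434 with DMSO. The scaffolds Bcar1 and Pxn were above focal adhesion kinase and its relative. Bcar1 had 27.1 ± 1.23 CPM per kb with INT-777 and 30.5 ± 1.65 with DMSO, and paxillin, Pxn, had 19.5 ± 0.663 CPM per kb with INT-777 and 20.6 ± 0.982 with DMSO. Focal adhesion kinase, Ptk2, had 7.94 ± 0.279 CPM per kb with INT-777 and 7.52 ± 0.502 with DMSO. Its relative Ptk2b had 7.88 ± 0.143 CPM per kb with INT-777 and 7.62 ± 0.330 with DMSO and overlapped Ptk2 in DMSO. The order of Bcar1 and Pxn, and that of Ptk2 and Ptk2b, turns with the longest transcript as the length. Tgfb1i1, a relative of paxillin found in smooth muscle and fibroblasts, stayed at 0.321 to 0.604 CPM. Ilk was counted at 0.0636 to 0.261 CPM, but 76.8% of its exon bases overlap exons of Taf10 on the other strand, and read pairs that fit both genes were left out as ambiguous, so these counts say nothing of its level. The same holds in part for Vcl, with 25.5% of its exon bases shared with Ap3m1. In all, 14 members were at or above 100 CPM in every library, 31 at or above 10 CPM, and 4 (Itgb3, Itgb8, Tgfb1i1 and Ilk) below 1 CPM in every library.

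Most members were close to their DMSO level with INT-777, and 1 of the 37 tested passed the threshold: Itga1, which was lower. The test was the edgeR quasi-likelihood test of INT-777 against DMSO over 15998 genes, with a Benjamini-Hochberg adjusted p under 0.05. That is 2.7% of the members, against 1.45% of all genes tested (0.763% lower), so the share is near the background. No member was higher, against 0.688% of all genes. Members with a log2 change within 0.2 of 0 numbered 29 of 37 (78.4%), against 67.5% of all genes. The median log2 change of the members was −0.08, with 24 of 37 negative (64.9%), against a median of 0.00 and 49.3% negative for all genes. At an unadjusted p under 0.05 there were 9 members (24.3%), against 16.4% of all genes. In bulk RNA, fewer cells of a type and less RNA per cell cannot be told apart, here and in every comparison below.

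With the day as a further term, which pairs the libraries, 12 members passed (32.4%), against 21.3% of all genes. Lower were 7 of 37 (18.9%), against 10.3% of all genes, namely Itga1, Itgb6, Bcar1, Parva, Fermt1, Vcl and Flna. Higher were 5 (13.5%), against 11.1% of all genes, namely Itga6, Itgb4, Tln2, Vasp and Actn4. The threshold with the day term is reached by small differences: apart from Tln2, Itga1 and Flna, the 12 changed by at most 0.22 in absolute log2. CPM values of the groups did not overlap for 13 members (35.1%), against 24.5% of all genes, 10 of them lower with INT-777 (27.0%, against 11.0%) and 3 higher (8.11%, against 13.6%). The log2 ratio within each day had 1 sign on all 3 days for 28 members (75.7%), against 52.0% of all genes, 19 negative and 9 positive. DESeq2 with treatment alone called 3 members (8.11%, against 4.99% of all genes), Tln2 higher (against 2.31%) and Itga1 and Zyx lower (against 2.68%). With the day term it called 8 (21.6%, against 14.2%), of which 4 were higher (against 6.95%) and 4 lower (against 7.26%), all of them among the 12 of edgeR. The 4 that edgeR called and DESeq2 did not, both with the day term, were Flna, Itgb6, Fermt1 and Actn4, at DESeq2 adjusted p of 0.0602, 0.0501, 0.0712 and 0.0615. Whether any of these shares differs from that of all genes was not tested, and the members were chosen with earlier results of these data known.

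**Figure D2:**
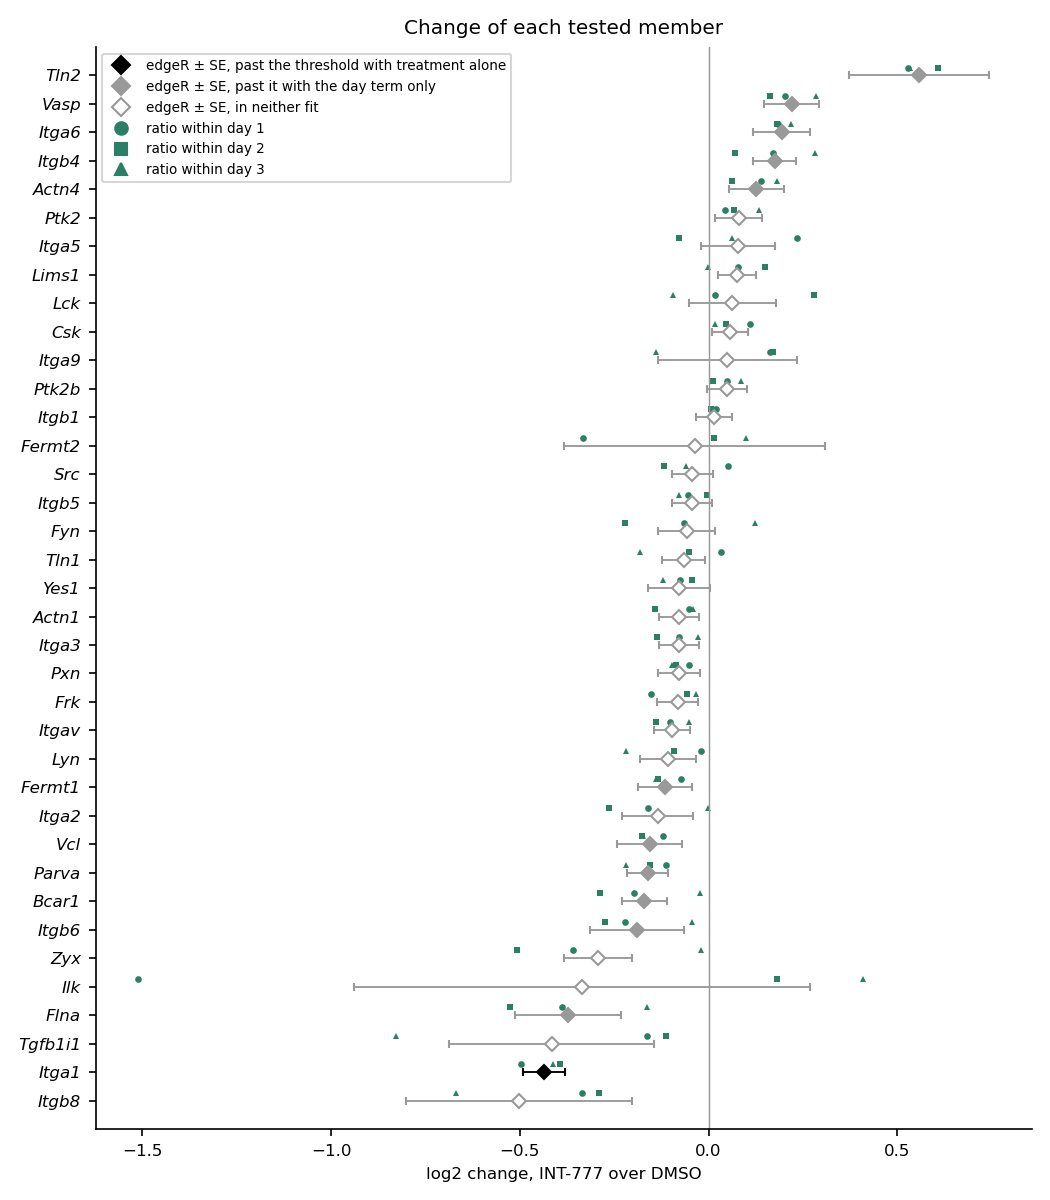
Log2 change of INT-777 over DMSO for each of the 37 tested members, with diamonds for the edgeR estimate and bars for 1 SE, and small green symbols for the ratio within each day. Itga1 alone is black, for passing with treatment as the single term, filled grey diamonds passed with the day term only, open ones in neither fit, and most other diamonds lie within 0.2 of 0.

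Itga1 (ENSMUSG00000042284, chromosome 13, 114953096 to 115101964 in GRCm38, minus strand) had 31.8, 31.2 and 32.0 CPM in the INT-777 libraries of days 1, 2 and 3, against 44.9, 41.1 and 42.6 CPM in the DMSO libraries. All INT-777 values lay below all DMSO values, and the INT-777 libraries were within 1 CPM of each other. The log2 change was −0.44 ± 0.06 (SE), a fall to 31.7 ± 0.399 CPM with INT-777, against 42.9 ± 1.93 CPM with DMSO (SD, n = 3 each; adjusted p = 0.0161 by edgeR). The ratios within days 1, 2 and 3 were −0.50, −0.39 and −0.41, and with the day term the edgeR adjusted p was 3.42e-05. Its partner Itgb1 and the other collagen-binding chain among the members, Itga2, did not pass in either fit. Without the day term the call was lost without any 1 library of days 1 and 2: the edgeR adjusted p was 0.116 without INT-777 replicate 1, 0.139 without INT-777 replicate 2, 0.0983 without DMSO replicate 1 and 0.0683 without DMSO replicate 2. It was 0.511 and 0.403 without day 1 and day 2, while the log2 change stayed between −0.51 and −0.40 in all fits run. Of all genes, 0.0486% to 0.116% passed without 1 library of day 1 or 2, and 0.0% and 0.0185% without day 1 and day 2. With the day term, edgeR called Itga1 lower without both libraries of day 1, of day 2 or of day 3, a combination added after seeing the data. Flna and Zyx were likewise called lower, and Tln2, Itgb4 and Vasp higher, in all 3 of these fits. Of all genes, 20.0%, 12.0% and 24.1% passed in them. Itga6, Bcar1, Parva and Vcl were not called without day 2. Itgb6, Fermt1 and Actn4 were called neither without day 1 nor without day 2. Fibroblasts and smooth muscle, which are known to express Itga1, had all 12 of their markers below 1 CPM in every library, as given above. Of 9 endothelial and platelet markers 8 stayed below 1 CPM in every library. The other, Pecam1, had 0.615 to 2.70 CPM with INT-777 and 0.651 to 2.76 CPM with DMSO, highest on day 3 in both groups. The part of such cells in the level or change of Itga1 was not tested. Markers of other epithelial types moved with the treatment too. In the fit with the day term, 8 of 9 goblet markers, 4 of 8 Paneth markers and 5 of 6 stem cell markers were lower and 1 stem cell marker, Ascl2, was higher. In that fit 3 of 7 enteroendocrine markers were lower and 1 of 4 tested tuft markers, Avil, was higher. Of the 6 epithelial markers, Krt8, Krt18 and Krt19 were higher and Cdh1 and Cldn7 lower. Krt18 also passed with treatment alone (adjusted p = 0.0462 by edgeR). Summed stem cell markers were 641 to 689 CPM with INT-777 and 808 to 864 CPM with DMSO. Of the 8 enterocyte markers 3 were lower and 1, Alpi, was higher. Their sum was 539.6, 538 and 454 CPM with INT-777 and 1011, 1035 and 733 CPM with DMSO on days 1, 2 and 3, and Anpep carried the difference: without it the other 7 summed to 274, 279 and 289.6 CPM with INT-777 and 207, 204 and 184 CPM with DMSO, higher with INT-777 on every day. The part of these markers in the changes of the members was not tested.

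The promoter of Itga1 is shown because it belongs to the only member past the threshold with treatment alone. The window runs from 250 bases before to 50 bases after the start in RefSeq (GRCm38.p6, chr13:115101915-115102214 on the minus strand), is written 5′ to 3′ along the gene and has no capitals, since none of the motifs searched is in it.
Itga1: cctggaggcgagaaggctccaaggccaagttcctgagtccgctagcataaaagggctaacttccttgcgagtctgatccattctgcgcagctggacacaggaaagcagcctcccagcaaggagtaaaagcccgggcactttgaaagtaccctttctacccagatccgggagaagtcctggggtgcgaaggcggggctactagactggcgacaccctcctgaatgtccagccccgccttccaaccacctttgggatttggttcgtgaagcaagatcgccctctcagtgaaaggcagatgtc
The motifs searched on both strands were AP-1 (TGANTCA), CRE (TGACGTCA), TEAD (GGAATG), EGR1 (GCGTGGGCG), the CArG box of SRF and the NF-kB site. They are in 7.81%, 1.79%, 14.7%, 0.612%, 1.63% and 4.5% of 32817 such windows. Windows were matched by symbol for 28 of the 38 members. A match is a description of letters and not of binding.

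Both chains of the laminin receptor of hemidesmosomes were higher with INT-777 in the fit with the day term. Itga6 (chromosome 2, 71745616 to 71858416) had 449, 441 and 399 CPM in the INT-777 libraries of days 1, 2 and 3, against 395, 389 and 343 CPM in the DMSO libraries. Itgb4 (chromosome 11, 115974709 to 116008412) had 263, 252 and 280.1 CPM in the INT-777 libraries of days 1, 2 and 3, against 234, 241 and 231 CPM in the DMSO libraries. For both genes all INT-777 values were above all DMSO values, and both had positive ratios on all 3 days. The log2 change of Itga6 was 0.19 ± 0.08 (adjusted p = 0.266 by edgeR, and 0.00237 with the day term), and that of Itgb4 was 0.18 ± 0.06 (adjusted p = 0.196 by edgeR, and 0.0113 with the day term). Itga3, in contrast, had 212, 202 and 221 CPM with INT-777 and 223, 222 and 226 CPM with DMSO, and its log2 change of −0.08 ± 0.05 did not pass in either fit. Itgb1 had 339.6, 335 and 337 CPM with INT-777 and 335, 333 and 333 CPM with DMSO, the narrowest range of all members, with its highest library 1.02 times its lowest and a log2 change of 0.01 ± 0.05.

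Among the chains that bind ligands other than laminin, Itgb6 was lower in the fit with the day term and did not pass with treatment alone. It pairs with Itgav and is known for releasing active TGF-beta from its latent form. Itgb6 had 51.0, 49.1 and 43.1 CPM in the INT-777 libraries of days 1, 2 and 3, against 59.5, 59.3 and 44.4 CPM in the DMSO libraries. The groups overlapped, because both day 3 libraries were low, and the ratios within days 1, 2 and 3 were −0.22, −0.27 and −0.04 (log2 −0.19 ± 0.13, adjusted p = 0.497 by edgeR, and 0.0244 with the day term, where DESeq2 did not call it). Its partner Itgav had 61.4, 61.1 and 61.5 CPM with INT-777 and 65.8, 67.2 and 63.8 CPM with DMSO, all INT-777 values being lower, with a log2 change of −0.10 ± 0.05 that passed in neither fit. Itgb5, the other partner at a like level, had 30.1, 30.8 and 31.1 CPM with INT-777 and 31.3, 30.9 and 32.8 CPM with DMSO, with overlapping groups. Itga2 had 71.3, 68.4 and 87.4 CPM with INT-777 and 79.8, 82.2 and 87.4 CPM with DMSO, and Itga5 had 14.1, 11.6 and 11.9 CPM with INT-777 and 12.0, 12.2 and 11.4 CPM with DMSO. Both overlapped between groups, and their log2 changes were −0.14 ± 0.10 and 0.08 ± 0.10. Itgb8 had the lowest log2 change of all members, −0.50 ± 0.30, on levels of 0.318, 0.294 and 0.364 CPM with INT-777 and 0.413, 0.369 and 0.604 CPM with DMSO, and did not pass (adjusted p = 0.447 by edgeR, and 0.329 with the day term).

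In the fits of all 6 libraries, none of the 7 genes of the Src kinase group passed, with or without the day term. None had an unadjusted p under 0.05 with treatment alone (edgeR, and DESeq2 also called 0 of 7 in both designs). Without both libraries of day 3, edgeR with treatment alone called Frk and Fyn lower (adjusted p = 0.04985 and 0.04825). In that fit 26.8% of all genes passed. Src itself had 90.6, 86.0 and 91.7 CPM in the INT-777 libraries of days 1, 2 and 3, against 87.5, 93.4 and 95.6 CPM in the DMSO libraries. The groups overlapped, the ratios within days 1, 2 and 3 were 0.05, −0.12 and −0.06, and the log2 change was −0.04 ± 0.05 (adjusted p = 0.742 by edgeR). Yes1 had 87.6, 86.4 and 74.1 CPM with INT-777 and 92.4, 89.1 and 80.5 CPM with DMSO, and Frk had 60.2, 58.6 and 60.9 CPM with INT-777 and 66.9, 61.0 and 62.3 CPM with DMSO. Frk was the only one of the 7 whose groups did not overlap, at a log2 change of −0.08 ± 0.06 (adjusted p = 0.5 by edgeR), and the Yes1 groups overlapped with both day 3 libraries low. Fyn had 23.6, 22.8 and 24.4 CPM with INT-777 and 24.7, 26.6 and 22.4 CPM with DMSO, and Lyn had 23.9, 22.4 and 20.1 CPM with INT-777 and 24.2, 23.8 and 23.4 CPM with DMSO, with overlap in both cases. Csk had 147, 145 and 148 CPM with INT-777 and 136, 141 and 146 CPM with DMSO, a log2 change of 0.06 ± 0.05 in the direction opposite to Src, which did not pass either. All 7 log2 changes lay between −0.11 and 0.06. These are transcript levels, and the activity of Src kinases, which is set by phosphorylation, was not measured.

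Of the scaffolds that Src and focal adhesion kinase phosphorylate, Bcar1 was lower in the fit with the day term. Bcar1 (chromosome 8, 111710474 to 111743809), a docking protein for the adaptor Crk, had 120.1, 120.3 and 129.8 CPM in the INT-777 libraries of days 1, 2 and 3, against 138, 147 and 132 CPM in the DMSO libraries. All INT-777 values were lower, although the day 3 values of the groups were close, and the log2 change was −0.17 ± 0.06 (adjusted p = 0.223 by edgeR, and 0.022 with the day term). Ptk2, Ptk2b and Pxn had log2 changes of 0.08 ± 0.06, 0.05 ± 0.05 and −0.08 ± 0.06 on levels of 82.1 to 96.3 CPM, 54.0 to 59.4 CPM and 157 to 178 CPM, and passed in neither fit. Tgfb1i1, with a log2 change of −0.42 ± 0.27 at well below 1 CPM, did not pass either.

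Tln2 had the highest log2 change of the 37 tested members. It encodes the second talin, a relative of Tln1 that binds integrin tails and actin. Tln2 (chromosome 9, 67217087 to 67559703) had 72.7, 68.9 and 50.3 CPM in the INT-777 libraries of days 1, 2 and 3, against 50.4, 45.2 and 34.7 CPM in the DMSO libraries. The groups overlapped only through day 3, when both libraries were low, and within each day INT-777 was higher, with log2 ratios of 0.53, 0.61 and 0.53. The log2 change of 0.56 ± 0.19 missed the threshold with treatment alone (adjusted p = 0.229 by edgeR) and passed with the day term (0.56 ± 0.05, adjusted p = 1.09e-06 by edgeR) and in DESeq2 (adjusted p = 0.0282). Tln1, the more abundant talin, had 189 to 214 CPM over all libraries and a log2 change of −0.07 ± 0.06.

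Parva and Fermt1, of the 7 activators and members of the ILK complex, were lower in the fit with the day term. Parva, the actin-binding member of the ILK complex (chromosome 7, 112427505 to 112591692), had 71.9, 68.3 and 65.0 CPM in the INT-777 libraries of days 1, 2 and 3, against 77.8, 76.0 and 75.6 CPM in the DMSO libraries. All INT-777 values were below all DMSO values (log2 −0.16 ± 0.05, adjusted p = 0.206 by edgeR, and 0.0174 with the day term). Fermt1 had 183, 178 and 199 CPM with INT-777 and 192, 196 and 219 CPM with DMSO, overlapping between groups, with a log2 change of −0.12 ± 0.07 (adjusted p = 0.46 by edgeR, and 0.0486 with the day term, where DESeq2 did not call it). Lims1, the adaptor between ILK and its other partners, had a log2 change of 0.08 ± 0.05 on 53.7 to 59.5 CPM, Fermt2 of −0.04 ± 0.35 and Ilk of −0.34 ± 0.60. These did not pass in either fit.

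Of the 6 actin linkers, Flna and Vcl were lower and Vasp and Actn4 higher in the fit with the day term. Flna, filamin A, which crosslinks actin and binds integrin tails (chromosome X, 74223461 to 74249820), had 571, 532 and 481 CPM in the INT-777 libraries of days 1, 2 and 3, against 747, 766 and 538 CPM in the DMSO libraries. On days 1 and 2 it was well below DMSO, on day 3 the groups were closer, and the groups overlapped because the DMSO library of day 3 was low. The ratios within days were −0.39, −0.53 and −0.16, and the log2 change was −0.37 ± 0.14 (adjusted p = 0.257 by edgeR, and 0.000945 with the day term, where DESeq2 did not call it). Without DMSO replicate 3 it was −0.53 (adjusted p = 0.0258 by edgeR). Vcl, vinculin, which reinforces the link between talin and actin (chromosome 14, 20929398 to 21033676), had 114, 106 and 93.9 CPM in the INT-777 libraries of days 1, 2 and 3, against 123, 119.6 and 106 CPM in the DMSO libraries. Within each day it was lower with INT-777, though the groups overlapped, and the log2 change was −0.16 ± 0.09 (adjusted p = 0.412 by edgeR, and 0.0122 with the day term).

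Zyx, zyxin, a LIM protein of stressed actin filaments, had 147, 144 and 176 CPM with INT-777 and 189, 205 and 178 CPM with DMSO on days 1, 2 and 3. The groups did not overlap, and the ratios of days 1 and 2 (−0.36 and −0.51) were far from that of day 3 (−0.02). Its log2 change of −0.29 ± 0.09 passed in neither edgeR fit of all libraries (adjusted p = 0.181, and 0.0683 with the day term) and passed in DESeq2 with treatment alone (adjusted p = 0.0431). With the day term, edgeR called Zyx lower in each fit that left out a whole day, as given above. With treatment alone it did so without day 3. In the other direction, Vasp (chromosome 7, 19256929 to 19271817) had 308, 292 and 343 CPM in the INT-777 libraries of days 1, 2 and 3, against 267, 260.4 and 281 CPM in the DMSO libraries. All its INT-777 values were higher (log2 0.22 ± 0.07, adjusted p = 0.198 by edgeR, and 0.00144 with the day term). Actn4 had 772, 744 and 703 CPM with INT-777 and 701, 713 and 619.8 CPM with DMSO, with overlap between groups through day 3 and a log2 change of 0.13 ± 0.07 (adjusted p = 0.437 by edgeR, and 0.0416 with the day term, where DESeq2 did not call it). Actn1 had a log2 change of −0.08 ± 0.05 on 286 to 318 CPM and passed in neither fit.

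The promoter windows of Vcl and Flna are shown because both genes were lower with the day term and hold matches to the motifs searched, which are in capitals (GRCm38.p6, chr14:20929148-20929447 on the plus strand, and chrX:74246485-74246784 on the minus strand).
Vcl: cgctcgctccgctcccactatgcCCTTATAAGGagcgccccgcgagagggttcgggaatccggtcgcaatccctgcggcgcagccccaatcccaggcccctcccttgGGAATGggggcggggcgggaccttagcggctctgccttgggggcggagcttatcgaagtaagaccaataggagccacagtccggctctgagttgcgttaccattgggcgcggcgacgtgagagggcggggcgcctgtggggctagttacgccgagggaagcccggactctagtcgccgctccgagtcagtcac
Flna: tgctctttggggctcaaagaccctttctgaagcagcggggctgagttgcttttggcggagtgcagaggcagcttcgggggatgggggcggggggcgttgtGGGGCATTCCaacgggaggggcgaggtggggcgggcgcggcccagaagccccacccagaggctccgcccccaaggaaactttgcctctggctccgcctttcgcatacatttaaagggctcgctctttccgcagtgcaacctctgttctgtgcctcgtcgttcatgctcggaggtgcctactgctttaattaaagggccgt
In Vcl the capitals mark, in this order, a CArG box at bases −227 to −218 and a TEAD match at −143 to −138, counted from the start with the first transcribed base as 1. In Flna they mark an NF-kB match at −150 to −141 that overlaps a TEAD match on the other strand. The RefSeq start of Flna lies inside the gene's span in GENCODE M21, whose outer start is further upstream and not shown. Over the members, CArG boxes were in 2 of 28 windows (7.14%, against 1.63% of all windows), those of Vcl and Fermt2. NF-kB matches were in 2 of 28 (7.14%, against 4.5%), those of Flna and Yes1. TEAD matches were in 5 of 28 (17.9%, against 14.7%), those of Itgb1, Lck, Vcl, Actn4 and Flna. Of these genes, Actn4 was higher with the day term, and Itgb1 and Lck passed in neither fit. AP-1 matches were in 3 of 28 (10.7%, against 7.81%), those of Zyx, Actn4 and Itga9. The RefSeq start used for Itga9 lies inside the gene, 105002 bases from its outer start in GENCODE M21. CRE and EGR1 matches were in 0 of 28, which says only that these letters are not in these windows.

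**Figure D3:**
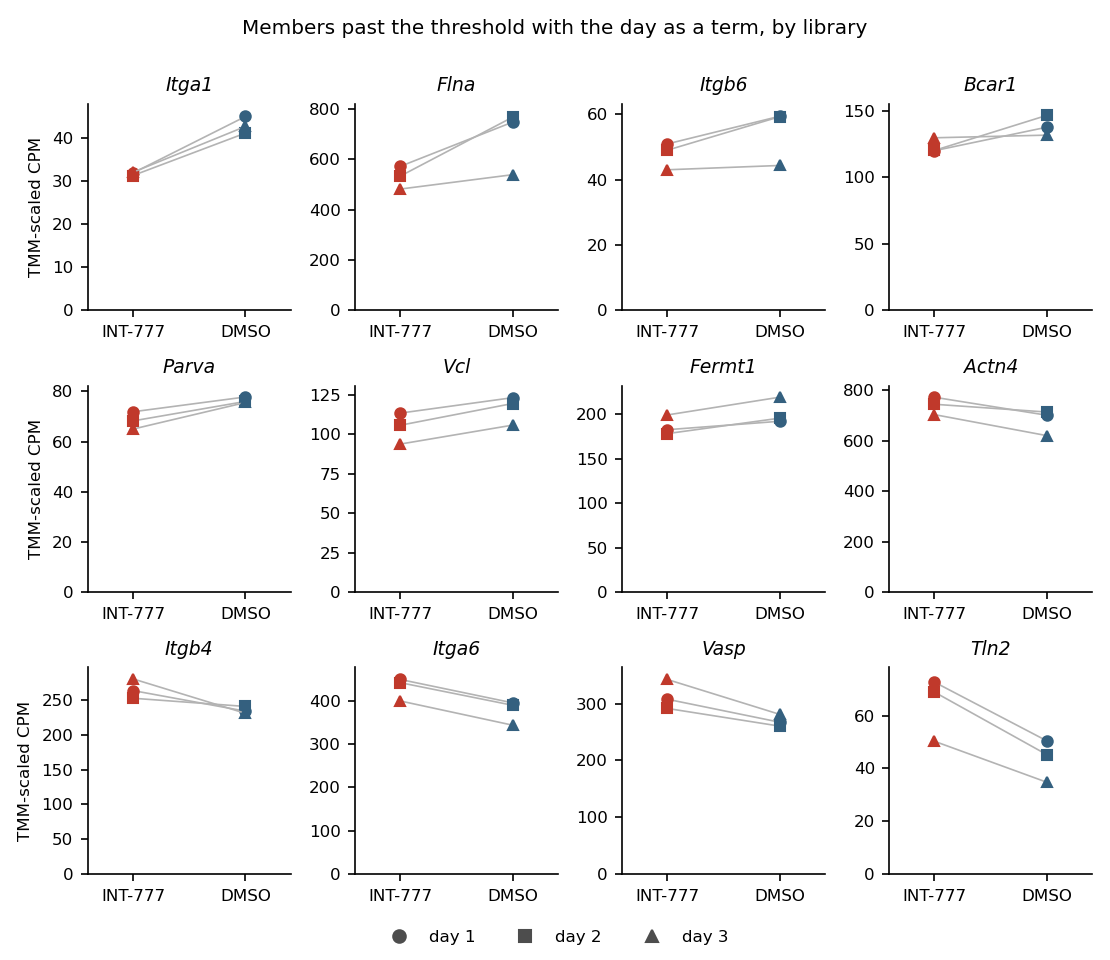
TMM-scaled CPM of the 12 members that passed the threshold with the day as a term, with INT-777 left and DMSO right in each panel, a symbol for each day and a line joining the libraries of a day. The lines of each panel slope the same way, and the panels of Flna, Itgb6 and Tln2 show day 3 well below days 1 and 2.

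Members also differed between days in the model of treatment and day. Whether the day differences were alike in both groups was not tested. In the F-test of the day terms, 9 of 37 members differed between days (24.3%), against 20.5% of all genes, a share near the background. On day 3 relative to day 1, 6 were lower (16.2%, against 8.6%) and 3 higher (8.11%, against 11.9%). The lower members were Tln2, with a log2 difference of −0.53 (adjusted p = 1.94e-05 by edgeR), Flna with −0.36 (adjusted p = 0.00501 by edgeR), Itgb6 with −0.33 (adjusted p = 0.0027 by edgeR), Vcl with −0.25 (adjusted p = 0.00545 by edgeR), Yes1 and Itga6. Fermt2, Itga2 and Fermt1 were higher on day 3, by 0.89, 0.21 and 0.16 in log2. Goblet and enteroendocrine markers were highest and RNA integrity lowest on day 3 in both groups, as given above, and the part of either in these differences was not tested. Itga1, Itgb4, Bcar1, Parva, Vasp and Actn4, which changed with the treatment in the paired fit, did not pass the test of days. Neither did Src or Itgb1.

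With treatment alone, edgeR called other genes of the pathway in 3 of the 6 lists examined. With the day term it called 0 of the 7 other integrin chains and genes in every other list. Of 131 further genes in 6 lists, 106 were tested, and 6 were higher and 2 lower (7.55% called, against 1.45% of all genes). With the day term 24 were higher and 15 lower (36.8%, against 21.3%). The difference from the members was not tested, and the lists were drawn up with earlier results of these data known. No gene passed in 3 of the lists with treatment alone: 7 other integrin chains, 12 other Src-type kinases and regulators, and 30 other focal adhesion adaptors, where 0, 3 and 5 had an unadjusted p under 0.05 (edgeR) and DESeq2 called 0, 0 and 2. Itga10, a collagen-binding chain, had the smallest p of the integrin chains (log2 0.20 ± 0.10, adjusted p = 0.356 by edgeR), followed by Itga2b, the platelet chain (−0.28 ± 0.33), and 6 further chains, among them the leukocyte chains Itgal and Itgb2, were too low to test. The phosphatases Ptpn12 (0.23 ± 0.06), which acts on Bcar1, and Ptpn1 (0.15 ± 0.05) led the kinase regulators, and Nedd9, a relative of Bcar1 (−0.19 ± 0.05), and Asap1 (0.23 ± 0.07) led the adaptors. All 4 passed with the day term.

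Genes past the threshold with treatment alone were among the actin linkers, the ligands and the surface proteins. Of 21 tested actin linkers, Flnc, a filamin related to Flna, rose, with 19.8 ± 2.54 CPM with INT-777 and 11.6 ± 0.925 CPM with DMSO (log2 0.77 ± 0.11, adjusted p = 0.0236 by edgeR). Lpp, a relative of zyxin, fell, with 131 ± 5.88 CPM with INT-777 and 171 ± 6.13 CPM with DMSO (log2 −0.38 ± 0.06, adjusted p = 0.0236 by edgeR). Of 21 tested ligands, 3 basement membrane genes rose: Nid1, nidogen, with 6.27 ± 0.355 CPM with INT-777 and 3.08 ± 0.132 CPM with DMSO (log2 1.03 ± 0.11, adjusted p = 0.00934 by edgeR), and the collagen IV chains Col4a1 (log2 1.33 ± 0.15, adjusted p = 0.0114 by edgeR) and Col4a2 (log2 1.10 ± 0.17, adjusted p = 0.0301 by edgeR), which lie side by side on opposite strands. Collagen IV is a ligand of Itga1 and Itga2 with Itgb1. Of 15 tested surface proteins, Plec and Plaur rose and Cd47 fell. Plec, plectin, which joins Itgb4 to keratin filaments, had 384 ± 30.9 CPM with INT-777 and 291 ± 5.54 CPM with DMSO (log2 0.40 ± 0.07, adjusted p = 0.0398 by edgeR). Plaur, the urokinase receptor, had a log2 change of 0.67 ± 0.10 (adjusted p = 0.0236 by edgeR), and Cd47, which associates with integrins, one of −0.37 ± 0.07 (adjusted p = 0.0464 by edgeR). All 8 calls were lost without INT-777 replicate 1 or 2, or without DMSO replicate 1 or 2.

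**Figure D4:**
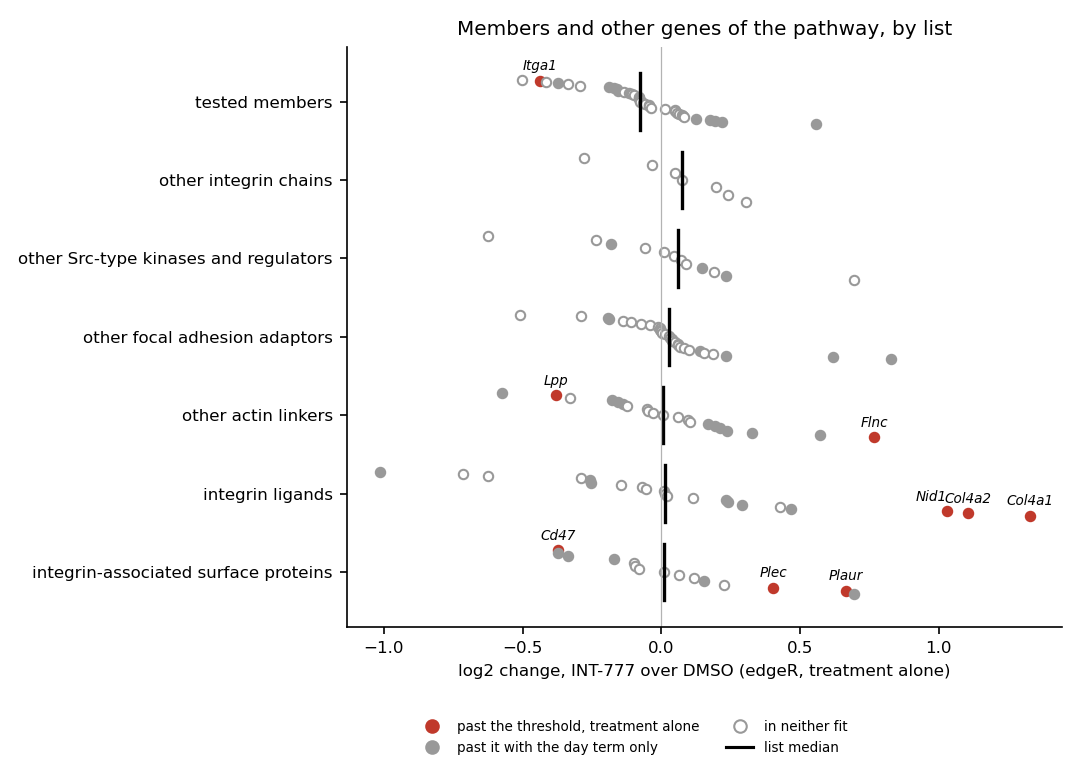
Log2 change of INT-777 over DMSO (edgeR, treatment alone) for the 37 tested members and the 106 tested genes of 6 other pathway lists, with a point for each gene and a bar for the list median. Red points passed the threshold with treatment alone, and the 3 rightmost red points are the basement membrane genes Nid1, Col4a2 and Col4a1.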

How the data were processed

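The 6 RNA libraries gave paired reads (100 nt, BGISEQ-500), per the labels' protocols. The submitters' processing notes name FastQC, STAR 2.73a, edgeR 3.24.3 and the builds GRCm38 and mm10, with the counted annotation not given in the sources used here. Deposited files of the authors hold raw counts of read pairs per Ensembl gene, with no normalisation. The column that ignores strand was used, since the strand columns held nearly equal shares, so overlapping genes are ambiguous. Of the pairs, 24.4 to 25.5% were in lines that name no gene and stayed out. Of 54838 identifiers 54809 matched GENCODE M21 (GRCm38), which gave symbols, coordinates and lengths.

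The tests used edgeR 4.0.16 under R 4.3.3 (filterByExpr, 15998 genes kept, TMM, robust quasi-likelihood test, two-sided, Benjamini-Hochberg adjustment over all genes), limma 3.58.1 and DESeq2 1.42.0, and the scripts were tested on simulated data. An adjusted p given as NA by DESeq2 stayed NA. An SE is obtained by dividing the size of a log2 change by the root of its F. Ratios within a day use a prior count of 2. The members and lists were chosen with earlier results of these data known. Values in every library are given for the member called with treatment alone, the 10 of smallest p with the day term, the chains and kinases above 10 CPM in every library and the extremes of change. Of each other list, the called genes or else the 2 of smallest p are named. Zyx, Actn4 and Fermt1 were added after their values were seen.

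The labels give a replicate number as a shared day and cell pool, and this is where the pairing comes from. As a check, deviations from group means had correlations of 0.329, 0.369 and 0.632 for the pairs of days 1, 2 and 3, 0.336 and 0.364 between days 1 and 2, and -0.487 to -0.435 between day 3 and the others, so they set day 3 apart and do not tell day 1 from day 2. The biological coefficient of variation was 0.149 without and 0.0480 with the day term.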

Additional observations from a re-analysis of the deposited data

How the results depend on the processing

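Counts of calls depended on the design more than directions did. With treatment alone 1 member, 232 of all genes and 8 other pathway genes passed. The replicate block, which is the day term, gave 12 members, 3415 of all genes and 39 other pathway genes. DESeq2 gave 3 members, 798 of all genes and 15 other pathway genes, and 8 members, 2274 of all genes and 34 other pathway genes with the block. RNA integrity as a covariate gave 4 members, 2036 of all genes and 27 other pathway genes, and no low-count filter gave 435 of all genes with 1 member. Leaving out each library in turn gave 0 to 2 members, 8 to 273 of all genes, 0 to 8 other pathway genes and 5 to 10 members that differ between days. Leaving out a whole day gave, for days 1, 2 and 3 in turn, 0, 0 and 19 members, 0, 3 and 4292 of all genes, and 0, 0 and 43 other pathway genes (edgeR alone was run; 1189 of all genes were under an unadjusted p of 0.05 without day 1). With the replicate block, a combination added after seeing the data, they were 10, 6 and 17 members, 3247, 1940 and 3853 of all genes, and 35, 26 and 40 other pathway genes. The causes were not tested. Counts of the first strand gave 5 members that differ between days, against 9. With the longest transcript as the length, 22 of 38 members had the same rank in their group, and a prior count of 0.5 gave 28 members with 1 sign on all days, against 28. Of 807 values of single members under 22 alternatives, 72 newly passed, 6 no longer passed and 0 turned sign while called. Where the member was not called, the log2 changes of Itga5, Itga9, Itgb1, Fyn, Lck, Fermt2 and Ilk turned sign in 2 to 7 alternatives each. Fits without a day hold 2 libraries a group, and genes below 1 CPM, such as Itgb8 and Tgfb1i1, rest on few read pairs.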
